A study of Mus musculus with 24 samples.

Results

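The rTg4510 mouse is a model of tauopathy, the accumulation of misfolded tau in neurons, and its hippocampal transcriptome is compared here with that of littermate (LM) controls over all genes. A library belonged to the comparison by its label, as an untreated rTg4510 mouse or as a littermate control, which gave 7 of the 23 distinct libraries of the series. Of these, 3 came from rTg4510 mice (females F1 and F3 and male M2) and 4 from LM mice (females F2 and F3 and males M1 and M2). A further rTg4510 column, M3, held the same count as M2 for every gene and was not counted again. The series description gives an age of 3 months for rTg4510 mice and does not name the LM mice, which the methods give the same age as rTg4510 mice at purchase. None of the 7 mice received Nanoligomer, and all are labelled as strain C57/B6. The LM libraries carry rTg4510 in the genotype field as well, and were grouped by the fields that call them littermates (title, description, treatment). Which transgene, if any, an LM mouse carried is not given in the sources used here. Set beside them are 4 libraries of rTg4510 mice treated with Nanoligomers at 150 mg/kg (rTg4510-Nano, females F1 and F2 and males M2 and M3), antisense molecules directed at NF-κB and NLRP3. They have the same genotype and are separate samples, but they were treated and are compared with the same LM libraries.

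In rTg4510 mice a mutant human tau transgene is switched on by a tetracycline transactivator, which the Camk2a promoter drives in excitatory neurons of the forebrain. Tau is a microtubule-binding protein of axons, and in this line its accumulation is followed by loss of hippocampal neurons and activation of glia. The tau construct was built in a vector made from the mouse prion gene. Insertion of the transgenes is known to have disrupted host genes, around Esyt2 on chromosome 12 for the transactivator and at Fgf14 on chromosome 14 for tau. The choroid plexus is an epithelium of the ventricles that secretes cerebrospinal fluid and lies against the hippocampus, and its transcripts were set apart, as a list of 34 markers and a wider set of 72 genes that also holds those following the markers at r above 0.8 over the 16 libraries outside the comparison.

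In bulk tissue, fewer cells of a type and less RNA per cell cannot be told apart. Libraries held 22520733 to 25885517 counts in rTg4510 mice and 17214974 to 26310360 counts in LM controls. Levels are given as CPM, counts scaled to a library of 1000000 after TMM adjustment. The 34 choroid plexus markers summed to 7956, 31700 and 11132 CPM in rTg4510 F1, F3 and M2, to between 354 and 748 CPM in rTg4510-Nano libraries and to between 375 and 814 CPM in LM controls. Hippocampal markers were present in all 7 libraries, but several of them were low in rTg4510 F1. Prox1, a transcription factor of dentate granule cells, was at 8.97, 52.5 and 40.6 CPM in rTg4510 F1, F3 and M2, against 69.2, 33.2, 119 and 117 CPM in LM F2, F3, M1 and M2. Neurod6, of CA pyramidal cells, was at 51.5, 223 and 302 CPM in rTg4510 mice, against 274, 122, 324 and 351 CPM in LM mice in the same order of libraries. Thus rTg4510 F1 and LM F3 had the least of both markers in their groups. Fibcd1, Zbtb20 and C1ql2 were also lowest in rTg4510 F1. By contrast, Wfs1 (254 CPM) and Camk2a (4444 CPM) were higher there than in rTg4510 F3 (175 and 4356 CPM). Markers of other tissue were high in LM M1. Its mean over markers of thalamus and habenula was 5.35 log2 CPM, against 2.67 to 3.41 in the other libraries compared. Over pituitary markers it was 2.65, against -1.71 to 0.633. One treated library, rTg4510-Nano M2, held 32.5 CPM of Slc17a7, the vesicular glutamate transporter of excitatory neurons, against 1470 to 2153 CPM in the other treated libraries, and values are also given without it. Its hypothalamus markers averaged 4.68 log2 CPM, against -1.99 to -0.153 in the other treated libraries. Its thalamus and habenula markers averaged 5.38, against 2.59 to 3.47. Pituitary markers averaged 4.32 in rTg4510-Nano M3, against -1.71 to 0.290 in the other treated libraries. Xist, the noncoding RNA of the inactive X chromosome, was at 25.1 CPM in male rTg4510 M2, against 0.0970 and 0.601 CPM in the LM males, beside 70.1 CPM of the Y-linked Ddx3y.

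The comparison asked which transcripts differed with tauopathy. By the edgeR quasi-likelihood test with Benjamini-Hochberg adjustment, 113 of 15166 tested genes (0.745%) rose in rTg4510 mice and 10 (0.0659%) fell, at an adjusted p under 0.05 against LM controls. At an unadjusted p under 0.05, 1321 genes (8.71%) were higher and 761 (5.02%) lower. DESeq2 called 587 higher (3.87%) and 175 lower (1.15%), and these held all 123 edgeR calls. All rTg4510 libraries were above all LM libraries for 1222 genes (8.06%) and below them for 812 (5.35%). The number of calls moved with single libraries. Without rTg4510 F1 it was 329 higher (2.17%) and 35 lower (0.231%), and without rTg4510 M2 it was 2 and 0. Leaving out LM F2 or LM M2 gave no call in edgeR, with 1520 and 1565 genes at an unadjusted p under 0.05, and leaving out LM F3 or LM M1 gave 4 and 15 higher and 4 and 3 lower genes. Without rTg4510 F3, 95 genes were higher and 6 lower. In each of these fits, all 10 lower genes kept a negative log2 fold change. Every rTg4510 library was below every LM library for these genes, so leaving out 1 library could hardly change the sign. The kept sign is therefore no test of stability. In rTg4510-Nano mice against the same LM libraries, edgeR called 0 genes higher, with 620 at an unadjusted p under 0.05 and 20 called by DESeq2, and 4 genes lower (0.0263%), which were Esyt2, Gabrd, Ier5l and Ptprn2. Leaving out any 1 library other than rTg4510-Nano M2 left 0 lower calls in that comparison. All treated libraries lay above all LM libraries for 357 genes (2.35%) and below them for 395 (2.6%). Labels do not say whether the libraries of a group share a litter, and p-values measure the spread between these mice only.

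Choroid plexus transcripts had the highest median log2 fold change of the 49 gene lists in rTg4510 mice. Of the 33 tested markers, 27 were higher past the threshold and all 33 had every rTg4510 library above every LM library, with a median log2 fold change of 4.81, beside -0.001 over all tested genes. Of the 27, edgeR still called 27 without rTg4510 F1, 22 without rTg4510 F3 and 1 without rTg4510 M2, while leaving out LM F3 kept 1, LM M1 kept 10, and LM F2 or LM M2 kept 0, with all 33 markers higher at an unadjusted p under 0.05 in each of these fits. Ttr, which carries thyroid hormone into cerebrospinal fluid, was at 4072, 17181 and 5988 CPM in rTg4510 F1, F3 and M2, against 25.5, 16.3, 180 and 28.7 CPM in LM F2, F3, M1 and M2 (edgeR log2 fold change 7.18 ± 1.12 SE, adjusted p = 0.0459). Kcnj13, a potassium channel of the choroid epithelium, was at 45.1, 112 and 47.9 CPM in rTg4510 mice, against 0.117, 1.02, 1.60 and 0.661 CPM in LM mice (edgeR log2 fold change 6.35 ± 0.64 SE, adjusted p = 0.0211). Trpv4, a cation channel gated by cell swelling, was at 27.8, 68.9 and 26.3 CPM in rTg4510 mice and at 0.842 to 1.33 CPM in LM mice. F3 held more than F1 and M2 for each of these transcripts, and no rTg4510 library overlapped an LM library. Aqp1, the water channel of the epithelium, Ace, the angiotensin-converting enzyme, Kcne2, a potassium channel subunit, F5, coagulation factor V, Tmem72 and Prr32 were also higher, with log2 fold changes from 4.29 (Ace) to 6.94 (Tmem72).

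**Figure D1:**
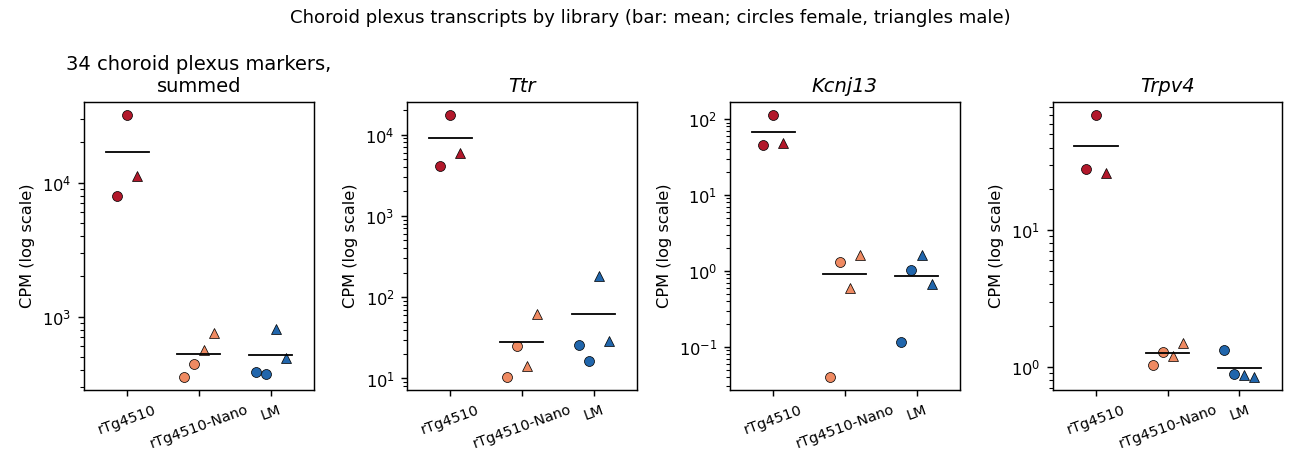
Choroid plexus transcripts in each library, as CPM on a log axis, for the sum of 34 markers and for Ttr, Kcnj13 and Trpv4, in rTg4510, rTg4510-Nano and LM libraries. Points are libraries and bars are group means. All 3 rTg4510 libraries lie above every other library in each panel, while the rTg4510-Nano and LM libraries overlap.

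Treated mice of the same genotype had these transcripts at LM levels. Ttr was at 10.4, 25.4, 14.3 and 62.8 CPM in rTg4510-Nano F1, F2, M2 and M3, within or below the range of LM libraries. The 27 markers called in rTg4510 mice had a median log2 fold change of 0.20 in rTg4510-Nano against LM mice, and none was above every LM library in all 4 treated libraries. All 3 untreated rTg4510 libraries carried the excess, so that genotype and choroid plexus content cannot be told apart in this comparison.

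**Figure D2:**
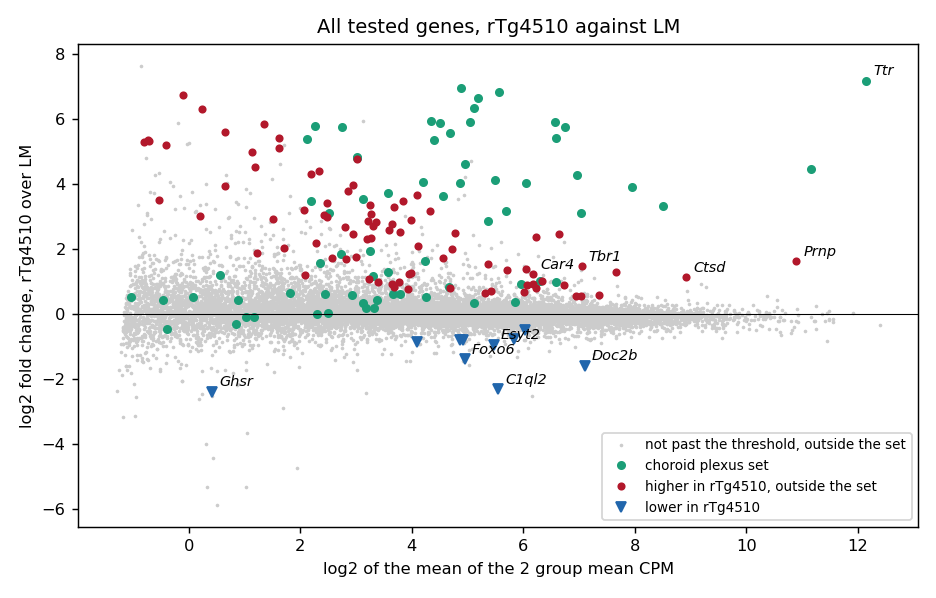
Log2 fold change of rTg4510 over LM mice for all 15166 tested genes against the log2 of mean CPM. Green points are the choroid plexus set, red points the 83 other genes called higher and blue triangles the 10 genes called lower. Prnp, Ctsd, Tbr1 and Car4 stand apart at high levels with moderate fold changes.

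Outside the choroid plexus set, 83 genes were higher in rTg4510 mice, and many of them had the library profile of the choroid markers. For each gene the excess over the LM mean was summed over the 3 rTg4510 libraries, and the percentage in F3 was taken, where an even spread gives 33.3%. The 27 called markers had 54.8% to 71.9% of their excess in F3, with a median of 62.1%. Of the 83 genes, 42 lay above the lowest marker, between 55.1% and 69.6%, with a median log2 fold change of 3.04. Among them were Pon3, a paraoxonase, Tjp3, a tight junction protein, Bmp6, a bone morphogenetic protein, Sfrp1, a secreted Wnt antagonist, and Slc16a9, a carnitine transporter, with log2 fold changes of 3.09, 3.05, 2.01, 2.49 and 2.30. With the choroid plexus score, which separates all rTg4510 from all LM libraries, as a covariate no gene was called higher by edgeR, with 576 at an unadjusted p under 0.05, and Bmp6 and Slc16a9 had log2 fold changes of -0.58 and -0.18. The other 41 had lower F3 shares, from 21.3% to 54.5%, with a median log2 fold change of 1.23. Just inside and outside the limit, Oca2 had 54.5% and Gm11744 55.1% of the excess in F3. This division was made after the data were examined, uses the values of the comparison itself and is a description. In rTg4510-Nano mice, 11 of the 41 and 4 of the 42 were above every LM library in all 4 treated libraries, beside 2.35% of all tested genes, but these comparisons use the same LM libraries, so the counts are not independent.

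**Figure D3:**
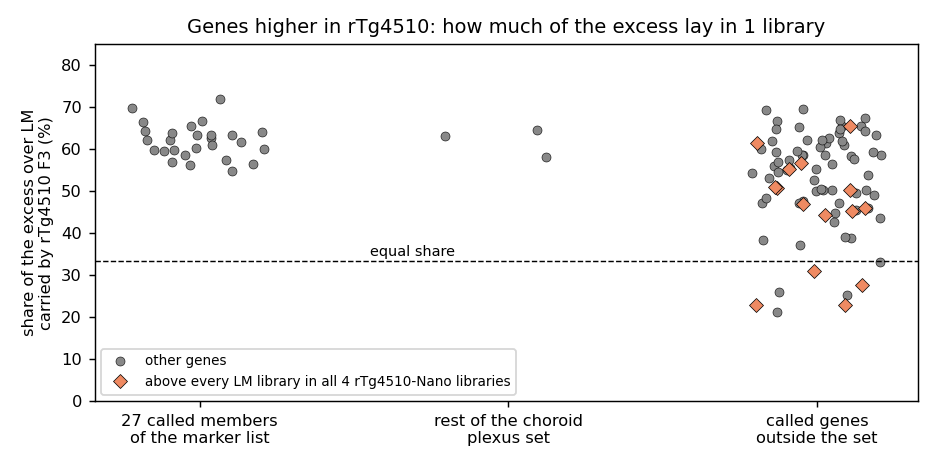
Percentage of the summed excess over the LM mean that library rTg4510 F3 carried, for genes called higher in rTg4510 mice. The 27 called markers lie between 54.8% and 71.9%, while called genes outside the choroid plexus set spread from 21.3% to 69.6%, and the dashed line is an equal share of 33.3%. Orange diamonds mark genes above every LM library in all 4 rTg4510-Nano libraries.

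Among the called genes with the smallest F3 shares was Prnp, the prion protein gene (chromosome 2, 131909928 to 131938436, GRCm38). Prnp was at 3065, 2267 and 3300 CPM in rTg4510 F1, F3 and M2, at 4054, 2840, 1149 and 2448 CPM in rTg4510-Nano F1, F2, M2 and M3, and at 963, 894, 896 and 952 CPM in LM F2, F3, M1 and M2. Every library of both rTg4510 groups was above every LM library, and rTg4510-Nano M2, the library with the least Slc17a7, was the lowest of the rTg4510 libraries. The difference between rTg4510 and LM mice was 1.64 ± 0.14 (SE) on the log2 scale, with an edgeR adjusted p of 0.0107. It was 1.501 in rTg4510-Nano mice and 1.75 without rTg4510-Nano M2 (adjusted p = 0.0337). Reads of the transgene's prion sequences and of the host gene were not separated in these counts. Mapt, the mouse tau gene, was at 662, 563 and 598 CPM in rTg4510 mice, against 538 to 562 CPM in LM mice. Its log2 fold change was 0.15, the groups did not overlap, and the test was not passed (adjusted p = 0.529 from edgeR). Camk2a, whose promoter drives the transactivator, was at 4444, 4356 and 5531 CPM in rTg4510 mice, against 4888 to 7040 CPM in LM mice, and the groups overlapped.

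Around the insertion site of the transactivator, 2 genes were lower past the threshold and 3 more did not overlap between the groups. Of all tested genes, 8.06% lay above LM in every rTg4510 library and 5.35% below. Esyt2, an extended synaptotagmin that tethers the endoplasmic reticulum to the plasma membrane (chromosome 12, 116279283 to 116390935, GRCm38), was at 31.7, 28.8 and 30.8 CPM in rTg4510 F1, F3 and M2, against 63.4, 55.7, 56.7 and 57.8 CPM in LM F2, F3, M1 and M2. Esyt2 was thus lower in every rTg4510 library (edgeR log2 fold change -0.94 ± 0.08 SE, adjusted p = 0.0107). In rTg4510-Nano mice it was at 25.2 to 34.7 CPM, with a log2 fold change of -0.98 against LM mice. Wdr60, a subunit of the dynein motor of cilia, was also lower, at 12.2, 13.7 and 10.9 CPM in rTg4510 mice, against 19.1 to 25.4 CPM in LM mice (log2 fold change -0.84, adjusted p = 0.0463 from edgeR). Ncapg2, of the condensin complex, and Ptprn2, a receptor of dense-core vesicles, had log2 fold changes of -0.82 and -0.74 with no overlap between groups, and missed the threshold (adjusted p = 0.175 and 0.0683). Vipr2, a receptor for vasoactive intestinal peptide, lay on the other side of Wdr60 and had a log2 fold change of 1.67, with 5.76, 4.25 and 4.63 CPM in rTg4510 mice, against 0.601 to 2.33 CPM in LM mice (adjusted p = 0.110). These 5 genes were apart from LM in the same direction in every rTg4510-Nano library. Zfp386 and Rapgef5, beyond them on either side, and D430020J02Rik, between Esyt2 and Ncapg2, overlapped between groups.

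**Figure D4:**
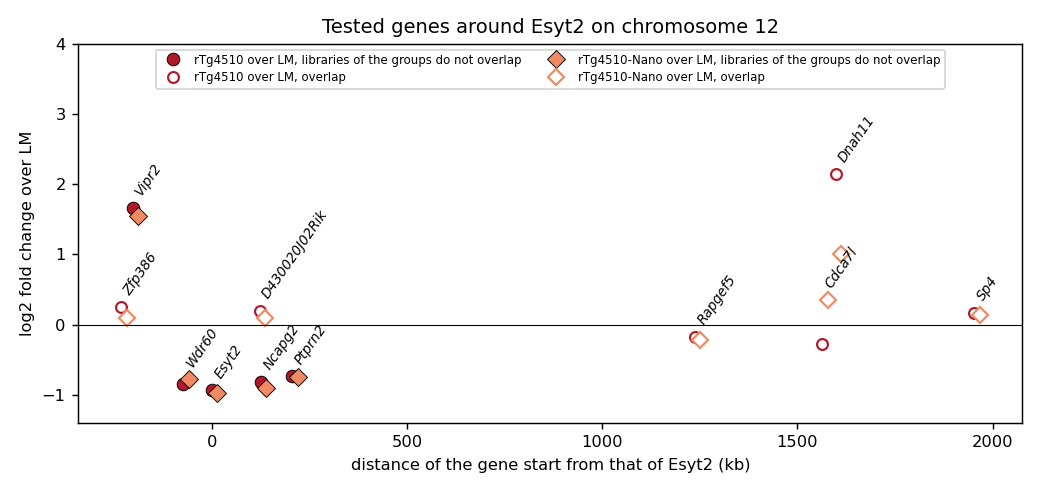
Log2 fold change over LM of the tested genes around Esyt2 on chromosome 12, against the distance of each gene's start from that of Esyt2 in kb, for rTg4510 (circles) and rTg4510-Nano mice (diamonds). Filled symbols have no overlap between the libraries of the groups. Vipr2 lies above 0 and Wdr60, Esyt2, Ncapg2 and Ptprn2 lie between -0.98 and -0.74 in both groups.

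At the site of the tau transgene, Fgf14, an intracellular modulator of sodium channels, was at 20.4, 15.9 and 17.6 CPM in rTg4510 mice, against 25.5 to 33.1 CPM in LM mice. Its log2 fold change of -0.69 missed the threshold (adjusted p = 0.0677 from edgeR), and in rTg4510-Nano mice, at 21.4 to 31.2 CPM, it overlapped the LM range (log2 fold change -0.16). Itgbl1, an integrin-like protein whose annotated end overlaps that of Fgf14, was at 5.49, 3.55 and 4.10 CPM in rTg4510 mice, against 5.92 to 13.5 CPM in LM mice (log2 fold change -1.03, adjusted p = 0.189). Reads of these overlapping genes may not be separable, since the strand setting of the counts is not given. Tmtc4, whose start lay at -1055.5 kb from that of Fgf14, was also below LM in every rTg4510 library (log2 fold change -0.63, edgeR adjusted p = 0.148). Both Itgbl1 and Tmtc4 overlapped the LM range in rTg4510-Nano mice. Tm9sf2, at -1867.4 kb, lay above LM in every library of both rTg4510 groups. Its log2 fold changes were 0.20 in rTg4510 mice (edgeR adjusted p = 0.275) and 0.17 in rTg4510-Nano mice. The other tested genes within 2 Mb overlapped between the rTg4510 and LM groups, and no gene of this window passed the threshold. Beside this, 5.35% of all tested genes lay below LM in every rTg4510 library and 8.06% above.

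Car4, Tbr1 and Slc35f1 were higher in rTg4510 mice. In treated mice Slc35f1 was above LM in every library, and Car4 and Tbr1 in every library but rTg4510-Nano M2. Car4, a membrane-bound carbonic anhydrase, was at 95.6, 88.3 and 119 CPM in rTg4510 F1, F3 and M2, at 187, 113, 15.6 and 116 CPM in rTg4510-Nano F1, F2, M2 and M3, and at 42.0 to 45.4 CPM in LM mice. After Prnp and Trpv4 it had the smallest p, at 1.23 ± 0.11 (SE) on the log2 scale in rTg4510 mice (edgeR adjusted p = 0.0107) and 1.68 in treated mice without rTg4510-Nano M2 (adjusted p = 0.0341). Tbr1, a transcription factor of glutamatergic neurons, was at 266, 149 and 168 CPM in rTg4510 mice, against 60.6 to 87.4 CPM in LM mice (edgeR log2 fold change 1.47 ± 0.21 SE, adjusted p = 0.0362). In treated mice Tbr1 was at 165, 169, 18.0 and 146 CPM, with the low value again in rTg4510-Nano M2. Slc35f1, of a solute carrier family, was at 87.1, 92.0 and 106 CPM in rTg4510 mice, against 40.5 to 63.4 CPM in LM mice (log2 fold change 0.93, edgeR adjusted p = 0.0459). It was at 79.9 to 123 CPM in treated mice. Tbr1 was highest in F1, the library with the least Prox1, and the part of that difference in tissue content was not tested. Without F1, all of Car4, Tbr1 and Slc35f1 stayed past the threshold (adjusted p = 0.00896, 0.0118 and 0.0286).

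Transcripts of immune cells were among the 41 genes with lower F3 shares. Ptprc, which encodes the pan-leukocyte phosphatase CD45, was at 12.3, 7.09 and 7.81 CPM in rTg4510 F1, F3 and M2, against 3.35, 3.24, 2.33 and 1.98 CPM in LM F2, F3, M1 and M2 (edgeR log2 fold change 1.73 ± 0.27 SE, adjusted p = 0.0407). In rTg4510-Nano mice it was at 3.36 to 8.74 CPM, above every LM library. Ccl6, a chemokine of myeloid cells, was at 2.59, 3.20 and 5.16 CPM in rTg4510 mice, against 0.873 to 1.24 CPM in LM mice (log2 fold change 1.87, edgeR adjusted p = 0.0469). It was at 1.84 to 4.87 CPM in treated mice. C1qa, a chain of the first complement component made by microglia, was at 70.9, 72.5 and 95.7 CPM in rTg4510 mice, against 45.2 to 52.2 CPM in LM mice (log2 fold change 0.69, adjusted p = 0.0487). F3, the library with the most choroid plexus RNA, was not the highest for any of these 3. The 41 genes were picked by their lower F3 shares, so this profile follows in part from the choice. The part of choroid plexus content in their differences was not tested. Lpcat2, an acyltransferase of platelet-activating factor synthesis, Lrrk2, a kinase mutated in familial Parkinson's disease, and Itgb5, an integrin subunit, were also higher, with log2 fold changes of 0.85, 0.66 and 0.81.

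Most genes of microglial activation had positive log2 fold changes, but few passed the test. Of 21 tested genes of disease-associated microglia, 1 was called higher (Ccl6), 15 had an unadjusted p under 0.05 with a positive log2 fold change, and none was lower. Of all tested genes, 0.745% were called higher, and 8.71% were higher and 5.02% lower at an unadjusted p under 0.05. Their median log2 fold change was 0.79, beside -0.001 over all tested genes, and it was 0.39 in rTg4510-Nano mice and 0.60 without rTg4510-Nano M2. DESeq2 called 9 of the 21, edgeR called 5 without rTg4510 F1, and leaving out any other library of either group gave 0 calls in edgeR, with 10 to 15 genes higher at an unadjusted p under 0.05. Tyrobp, the signalling adaptor of TREM2, was at 14.3, 14.3 and 19.5 CPM in rTg4510 mice, against 7.75 to 10.7 CPM in LM mice (adjusted p = 0.0935). Cd68, a lysosomal glycoprotein of phagocytes, was at 12.4, 10.5 and 18.8 CPM in rTg4510 mice, against 5.39 to 9.44 CPM in LM mice (adjusted p = 0.180). Lgals3, which encodes galectin 3, had the F3-weighted profile, at 2.02, 5.17 and 2.07 CPM in rTg4510 mice, against 0.361 to 0.728 CPM in LM mice (adjusted p = 0.0508). In the complement list, 1 of 19 genes was called (C1qa), 13 were higher and 1 lower at an unadjusted p under 0.05, and the median was 0.85. Its members differed in profile, since C1qb had 20.9% of the excess in F3 while Cd59a and Cd55, inhibitors of complement on cell surfaces, had 65.9% and 56.8%. Homeostatic microglial genes had a median of 0.25 over 14 genes, none of them called by edgeR or DESeq2 and 3 higher at an unadjusted p under 0.05, among them Csf1r, the receptor of the microglial growth factor, at 129, 113 and 161 CPM in rTg4510 mice and 83.7 to 110 CPM in LM mice.

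Lysosomal transcripts gave more calls than any other list not drawn from the choroid plexus. Of 40 tested genes, 5 were called higher, beside 0.745% of all tested genes. At an unadjusted p under 0.05, 27 were higher, beside 8.71% of all tested genes, and none was lower. DESeq2 called 19, and edgeR called 13 without rTg4510 F1, 1 without rTg4510 F3 and 0 without any 1 of the other 5 libraries, where 23 to 27 had a positive change at an unadjusted p under 0.05. For 25 of them all rTg4510 libraries lay above all LM libraries, beside 8.06% of all tested genes, and the median log2 fold change was 0.44. Ctsd, the aspartyl protease cathepsin D, was at 525, 792 and 674 CPM in rTg4510 F1, F3 and M2, at 475, 396, 340 and 343 CPM in rTg4510-Nano F1, F2, M2 and M3, and at 322, 310, 299 and 279 CPM in LM F2, F3, M1 and M2 (edgeR log2 fold change 1.14 ± 0.14 SE, adjusted p = 0.0258). Npc2, a cholesterol-binding protein of the lysosome, was at 66.7, 109 and 86.4 CPM in rTg4510 mice, against 43.6 to 49.9 CPM in LM mice (adjusted p = 0.0463). Lgmn, an asparaginyl endopeptidase that cleaves tau, and Glb1, a beta-galactosidase, were higher with log2 fold changes of 0.57 and 0.80. F3 was the highest library for each of these genes, with 45.2% (Ctsd) to 51.0% (Npc2) of the excess, which was less than for any called choroid plexus marker and more than an even share. In rTg4510-Nano mice, whose choroid markers were at LM levels, the lysosomal list had a median log2 fold change of 0.22 and no gene called by edgeR, with 14 higher at an unadjusted p under 0.05. With the choroid plexus score as a covariate, the median was 0.10 and no lysosomal gene was called by edgeR, with 5 higher at an unadjusted p under 0.05. Npc2 then had a log2 fold change of -0.27, against 0.90 without the covariate. The score separates all rTg4510 from all LM libraries, so that fit cannot tell genotype from choroid plexus content.

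Promoters of lysosomal genes are shown because most of these genes had positive fold changes and many are known targets of TFEB, a transcription factor that binds E-boxes. The letters CACGTG, an E-box that reads the same on both strands, were searched in RefSeq windows of 300 bases that end 50 bases after the start (GRCm38.p6). They stood in 14 of the 31 lysosomal genes with a window (45.2%), beside 11.2% of 11445 tested genes and 8.09% of all 27025 genes with one. The longer CLEAR element, searched as the E-box with GT before it and AC after it and the site TFEB is known for, stood in 1 of the 31 (3.23%), beside 0.699% of tested genes and 0.370% of all genes with a window. Ctsd, Glb1 and Lgmn held an E-box and Npc2 did not. The 250 bases before the start are printed 5′ to 3′ with E-boxes in capitals, for Ctsd (chr7:142387828-142388077, minus strand), Glb1 (chr9:114400828-114401077, plus strand) and the Lgmn start whose window held an E-box (chr12:102439093-102439342, minus strand).
Ctsd: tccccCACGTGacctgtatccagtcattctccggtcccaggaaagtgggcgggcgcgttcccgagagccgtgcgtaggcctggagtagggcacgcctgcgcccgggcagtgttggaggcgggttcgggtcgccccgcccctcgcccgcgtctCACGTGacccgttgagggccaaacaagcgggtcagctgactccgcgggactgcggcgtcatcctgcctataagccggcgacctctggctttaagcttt
Glb1: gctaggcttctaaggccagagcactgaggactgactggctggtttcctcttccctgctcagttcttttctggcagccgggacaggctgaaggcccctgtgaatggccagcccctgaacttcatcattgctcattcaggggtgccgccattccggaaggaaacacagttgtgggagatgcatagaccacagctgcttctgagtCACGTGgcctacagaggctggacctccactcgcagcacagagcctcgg
Lgmn: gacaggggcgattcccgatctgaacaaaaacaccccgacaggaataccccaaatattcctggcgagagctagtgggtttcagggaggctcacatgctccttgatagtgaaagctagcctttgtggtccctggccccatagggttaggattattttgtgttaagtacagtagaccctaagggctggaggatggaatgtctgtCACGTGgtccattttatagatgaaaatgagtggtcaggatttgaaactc
A match is a description of the letters only.

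**Figure D5:**
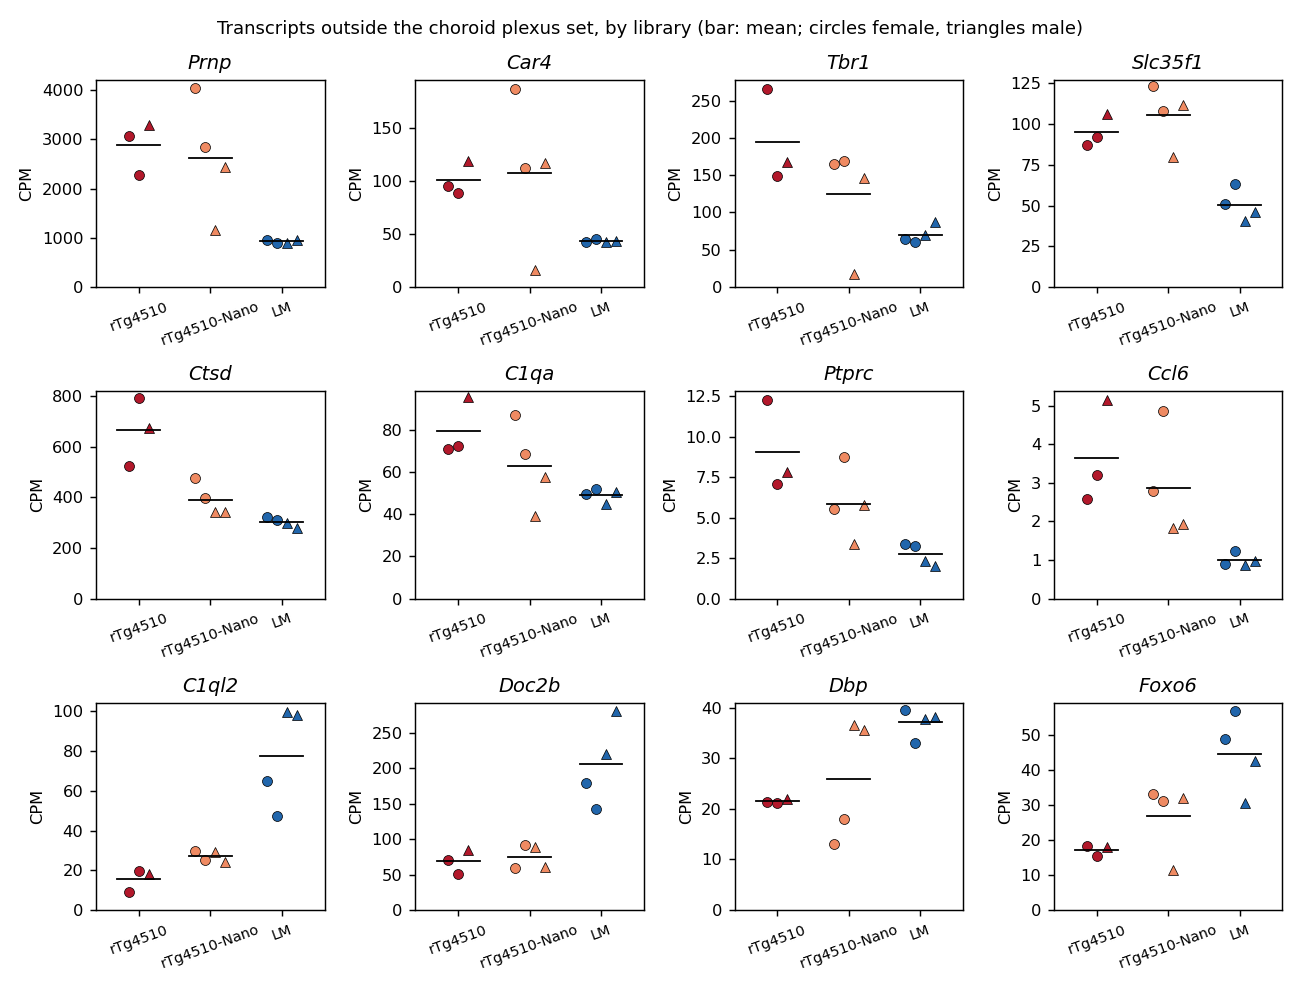
CPM in each library of 12 transcripts outside the choroid plexus set, in rTg4510, rTg4510-Nano and LM libraries. Points are libraries and bars are group means. The 3 rTg4510 libraries lie above all LM libraries for Prnp to Ccl6 and below them for C1ql2 to Foxo6, and the low rTg4510-Nano point of Car4 and Tbr1 is M2.

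Of the markers of dentate granule cells, 1 was lower past the threshold. C1ql2, a synaptic organizer secreted at mossy fiber synapses, was at 9.20, 19.9 and 18.1 CPM in rTg4510 F1, F3 and M2, at 24.0 to 29.7 CPM in rTg4510-Nano mice and at 65.1, 47.3, 99.8 and 98.2 CPM in LM F2, F3, M1 and M2. C1ql2 fell by 2.30 ± 0.37 (SE) on the log2 scale (edgeR adjusted p = 0.0463), and no library of either rTg4510 group reached the lowest LM library. Of 14 granule cell markers, C1ql2 was the 1 called lower, 4 were lower at an unadjusted p under 0.05 and none was higher, with a median log2 fold change of -0.54. Of all tested genes, 0.0659% were called lower and 5.02% were lower at that unadjusted p. Stxbp6, a regulator of membrane fusion, was at 46.4, 60.3 and 58.6 CPM in rTg4510 mice, against 76.8 to 157 CPM in LM mice (adjusted p = 0.110), and Rfx3, a ciliogenic transcription factor, differed by -0.55 on the log2 scale (adjusted p = 0.0722). Prox1 itself overlapped between groups. Without F1, the median of the list was -0.66. The 14 markers of CA pyramidal cells had a median of -0.41, which was -0.07 without F1, with no gene called by edgeR or DESeq2 and 1 lower at an unadjusted p under 0.05. Rbfox3, the neuronal nuclear antigen NeuN, was at 321, 304 and 352 CPM in rTg4510 mice, against 304.5 to 441 CPM in LM mice, and the groups overlapped.

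Other neuronal transcripts were lower past the threshold. Doc2b, a calcium sensor of spontaneous transmitter release, was at 70.1, 50.8 and 85.2 CPM in rTg4510 F1, F3 and M2, at 59.7 to 91.3 CPM in rTg4510-Nano mice and at 180, 143, 220 and 281 CPM in LM F2, F3, M1 and M2 (edgeR log2 fold change -1.58 ± 0.27 SE, adjusted p = 0.0499). Both groups of rTg4510 mice were entirely below LM mice, and without F1 the adjusted p was 0.0647. Foxo6, a forkhead factor of the hippocampus linked to memory, was at 18.2, 15.3 and 18.0 CPM in rTg4510 mice, against 30.4 to 56.7 CPM in LM mice (log2 fold change -1.37, adjusted p = 0.0362). Mas1, a receptor of the angiotensin system, was at 22.05, 20.2 and 23.8 CPM in rTg4510 mice, against 36.6 to 41.1 CPM in LM mice (log2 fold change -0.81, adjusted p = 0.0241), while rTg4510-Nano F1, at 39.9 CPM, lay in the LM range. Ghsr, the receptor for ghrelin, was at 0.610, 0.394 and 0.265 CPM in rTg4510 mice, against 1.51 to 2.69 CPM in LM mice, where it had 34 to 69 counts (log2 fold change -2.39, adjusted p = 0.0469). Eml5, a microtubule-associated protein, lay far from Esyt2 on the same chromosome and differed least, at 52.5, 58.0 and 53.0 CPM in rTg4510 mice, against 70.8 to 80.4 CPM in LM mice (log2 fold change -0.48, adjusted p = 0.0463).

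Dbp was lower, and most clock genes had negative log2 fold changes. Dbp, a PAR bZIP transcription factor whose level follows the time of day, was at 21.3, 21.1 and 21.9 CPM in rTg4510 F1, F3 and M2, against 39.6, 33.0, 37.7 and 38.2 CPM in LM F2, F3, M1 and M2 (edgeR log2 fold change -0.79 ± 0.09 SE, adjusted p = 0.0238). In rTg4510-Nano mice, females F1 and F2 had 13.02 and 18.0 CPM and males M2 and M3 had 36.7 and 35.6 CPM, so that the males lay in the LM range. Of 19 tested clock genes, Dbp was the 1 called lower, and the median log2 fold change was -0.34. At an unadjusted p under 0.05, 10 were lower and 1 higher, beside 5.02% and 8.71% of all tested genes. For 8 of the 19, all rTg4510 libraries lay below all LM libraries, beside 5.35% of all tested genes. DESeq2 called 7 lower. Per3, a period gene, was at 20.6, 22.7 and 21.4 CPM in rTg4510 mice, against 30.6 to 48.9 CPM in LM mice (adjusted p = 0.0502 from edgeR). Hlf, a relative of Dbp, and Ciart, a repressor of the clock, had log2 fold changes of -0.54 and -0.98 with no overlap (adjusted p = 0.0914 and 0.141). Per the methods, mice were kept on a reversed light cycle and tissue was taken in the late morning. The hour for each mouse is not given in the sources used here, and its part in these differences was not tested.

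Clock genes are also known for E-boxes, which CLOCK and BMAL1 bind. CACGTG stood in the windows of 5 of the 17 clock genes with one (29.4%), beside 11.2% of tested genes, and Dbp, Per3 and Hlf held none in theirs. The cAMP response element TGACGTCA, also the same on both strands, stood in 1 of the 17, Hlf, and in 2 of the 17 immediate early genes with a window, beside 3.44% of tested genes. Ciart (chr3:95882229-95882478, minus strand) and the upstream of both Per1 starts (chr11:69098699-69098948, plus strand) are printed as above, Ciart because it held 3 E-boxes and Per1 because it belongs to both the clock and the glucocorticoid lists.
Ciart: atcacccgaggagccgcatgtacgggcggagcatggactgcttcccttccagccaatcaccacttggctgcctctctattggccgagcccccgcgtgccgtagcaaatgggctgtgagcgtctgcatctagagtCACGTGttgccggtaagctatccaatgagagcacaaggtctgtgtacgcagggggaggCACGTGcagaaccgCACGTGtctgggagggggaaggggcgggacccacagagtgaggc
Per1: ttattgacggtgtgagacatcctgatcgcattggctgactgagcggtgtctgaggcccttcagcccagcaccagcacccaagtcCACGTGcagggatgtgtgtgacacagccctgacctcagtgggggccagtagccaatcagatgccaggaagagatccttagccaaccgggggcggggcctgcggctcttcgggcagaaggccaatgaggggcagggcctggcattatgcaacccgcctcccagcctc

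Of the glucocorticoid-responsive transcripts, Fkbp5 was lower. Fkbp5, a chaperone of the glucocorticoid receptor that the hormone induces, was at 35.2, 45.2 and 45.7 CPM in rTg4510 F1, F3 and M2, against 74.6, 59.9, 75.8 and 77.2 CPM in LM F2, F3, M1 and M2 (edgeR log2 fold change -0.77 ± 0.13 SE, adjusted p = 0.0469). In rTg4510-Nano mice it ranged from 32.3 to 76.1 CPM and overlapped the LM range. Per1 (log2 fold change -0.56), Tsc22d3, a leucine zipper protein induced by the hormone (-0.37), and Zbtb16, a zinc finger factor (-0.78), were below LM in every rTg4510 library and missed the threshold. The median of the 14 genes was -0.01. At an unadjusted p under 0.05, 5 were lower and 1 higher, beside 5.02% and 8.71% of all tested genes.

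Immediate early genes, induced by neuronal activity, had a median log2 fold change of -0.30 over 22 genes. None was called by edgeR, and DESeq2 called 4 lower, beside 1.15% of all tested genes. At an unadjusted p under 0.05, 5 were lower, beside 5.02% of all tested genes, and none was higher. Fosl2, a Fos-family factor, was at 27.3, 27.2 and 30.8 CPM in rTg4510 mice, against 38.5 to 70.6 CPM in LM mice (adjusted p = 0.0703 from edgeR). Egr2 was at 2.63, 1.80 and 1.59 CPM in rTg4510 mice, against 2.91 to 6.74 CPM in LM mice (adjusted p = 0.134), and Junb had a log2 fold change of -0.54 with no overlap. Bdnf, the brain-derived neurotrophic factor, was at 23.3, 33.3 and 44.7 CPM in rTg4510 mice, against 32.0 to 56.6 CPM in LM mice, and the groups overlapped.

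Receptor lists had negative medians and no call in edgeR. The 24 glutamate receptor and scaffold genes had a median of -0.21, with 3 lower and 1 higher at an unadjusted p under 0.05, and DESeq2 called 3 lower and 1 higher. Of all tested genes, 5.02% were lower and 8.71% higher at that unadjusted p, and DESeq2 called 1.15% lower and 3.87% higher. Grik2, a kainate receptor subunit, was at 53.8, 43.2 and 49.6 CPM in rTg4510 mice, against 62.9 to 72.1 CPM in LM mice (adjusted p = 0.100), and Gria2, an AMPA receptor subunit, had a log2 fold change of -0.42 (adjusted p = 0.193). The 14 GABA-A receptor genes also had a median of -0.21, with 2 lower at an unadjusted p under 0.05 and 1 called lower by DESeq2. Gabrd, the subunit of extrasynaptic receptors on granule cells, was at 19.8, 12.3 and 14.3 CPM in rTg4510 mice, at 9.75 to 12.8 CPM in rTg4510-Nano mice and at 22.9 to 33.96 CPM in LM mice. The difference from LM was -0.84 on the log2 scale in rTg4510 mice (adjusted p = 0.100) and -1.27 in treated mice without rTg4510-Nano M2 (adjusted p = 0.0415). Chrna7, a nicotinic acetylcholine receptor subunit, had a log2 fold change of -0.70 (adjusted p = 0.100), and Scg2, the secretogranin 2 precursor, one of -0.62 (adjusted p = 0.0636).

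Lists of antigen presentation, astrocytes and ventricular cells had positive medians and few or no calls. Over 12 genes of MHC class I the median was 0.61, with no call in edgeR, 3 in DESeq2 and 7 higher at an unadjusted p under 0.05. Of all tested genes, 8.71% were higher at that unadjusted p and DESeq2 called 3.87% higher. Tapbp, which loads peptides onto class I molecules, was at 38.6, 43.5 and 38.7 CPM in rTg4510 mice, against 27.6 to 31.3 CPM in LM mice (adjusted p = 0.0641). The 14 reactive astrocyte genes had a median of 0.51, with no call in edgeR, 1 in DESeq2 and 6 higher at an unadjusted p under 0.05. Gfap, the intermediate filament of astrocytes, was at 321, 882 and 1089 CPM in rTg4510 F1, F3 and M2, against 304 to 445 CPM in LM mice, so that F1 lay in the LM range (adjusted p = 0.322). Without F1, Gfap passed the threshold (log2 fold change 1.31, edgeR adjusted p = 0.0128), and edgeR called 3 genes of this list. Leaving out any other 1 library left Gfap short of it. The 18 genes of ependyma and motile cilia, which choroid epithelium shares in part, had a median of 1.19, with no call in edgeR, 2 in DESeq2 and 8 higher at an unadjusted p under 0.05. Drc7, a regulator of ciliary dynein, was at 26.98, 106 and 36.6 CPM in rTg4510 mice, against 1.91 to 8.44 CPM in LM mice (adjusted p = 0.0545), with 65.0% of the excess in F3.

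Housekeeping lists and the list of tau kinases and activators had medians near 0. They were -0.02 over 76 cytosolic ribosomal protein genes, 0.06 over 77 respiratory chain genes, -0.02 over 19 cholesterol synthesis genes and -0.06 over 20 tau kinases and activators. Of these, 1 respiratory chain gene was called higher by edgeR, beside 0.745% of all tested genes. It was Cox8b, an oxidase subunit with 62.2% of its excess in F3, named after its values were seen. Among the genes the treatment targets, Nfkb1 was at 14.3, 25.7 and 22.7 CPM in rTg4510 mice, against 18.3 to 20.2 CPM in LM mice, and Nlrp3 was at 2.10, 0.963 and 1.32 CPM in rTg4510 mice, against 0.781 to 2.66 CPM in LM mice. Both overlapped between groups. Il17re, a subunit of the interleukin 17C receptor, was at 1.18, 7.18 and 1.81 CPM in rTg4510 mice, against 0 to 0.754 CPM in LM mice (adjusted p = 0.210 from edgeR), and 74.4% of its excess lay in F3, more than for any called choroid plexus marker. S100a8, a myeloid alarmin, and Ido1, an enzyme of tryptophan breakdown, were below the count minimum and were not tested.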

How the data were processed

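RNA was taken from whole mouse hippocampus, polyA-selected and sequenced on Illumina libraries. Per the labels and methods, the authors trimmed reads with fastp and aligned them to mm10 with STAR, and they deposited whole-number counts per gene for 24411 genes. Which program counted the reads, with which strand setting, and the tool versions are not given in the sources used. Of 24 columns, 23 were distinct, since rTg4510 M2 and M3 held identical counts and entered once.

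A gene was tested where its normalized counts averaged 10 or more, with edgeR 4.0.16 (TMM scaling, robust quasi-likelihood F test, Benjamini-Hochberg threshold 0.05, R 4.3.3, limma 3.58.1) on the libraries compared, with no covariate. DESeq2 1.42.0 was an alternative, beside other scalings and filters, covariates, a replicate block and leaving out each library. The procedure was tested on simulated data. Figures used matplotlib 3.10.9. The members and gene lists were chosen with earlier results of these data known. Named genes were those lower past the threshold, the 20 higher outside the choroid plexus set and the 8 choroid plexus genes with the smallest p, Ttr, the transgene and insertion site genes, up to 4 genes a list, genes the study names and the 10 nearest to the threshold. Others (Bmp6, Gm11744, Cox8b and tissue markers) were chosen after their values were seen. So were called genes with lower F3 shares that no other rule named, such as Tbr1, Slc35f1, Ptprc and Lrrk2. Promoter windows were matched by symbol to RefSeq starts on GRCm38.p6. Positions are those of the same build. Not every called member of a list is reported here.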

Additional observations from a re-analysis of the deposited data

Results flagged for a closer look

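In 45 groups of 4 LM libraries examined gene by gene, 2 had 1 library far from the other 3, and chance alone flags about 1 group in 20. Fkbp5 was at 59.9 CPM in LM F3, against 74.6 to 77.2 CPM in the other LM libraries, and all rTg4510 libraries were below it. Ttr was at 180 CPM in LM M1, against 16.3 to 28.7 CPM in the other LM libraries. Xist was at 25.1 CPM in male rTg4510 M2, above the 0.0970 and 0.601 CPM of the LM males. The difference between the rTg4510 and LM groups was also compared between sexes, with 0 of 15166 genes at an adjusted p under 0.05 for the interaction by edgeR and 416 at an unadjusted p under 0.05. With 1 distinct male rTg4510 library, the male difference rests on a single sample, and this count does not show that the sexes were alike.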

How the results depend on the processing

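The numbers of genes called moved with the tool, the covariates and single libraries. For the higher and the lower genes of rTg4510 mice (113 and 10, with 83 of the higher ones outside the choroid plexus set), DESeq2 gave 587 and 175 (542 outside the set), sex as a covariate 28 and 5 (19), the choroid plexus score as a covariate 0 and 1 (0), and the 3 groups of the model fitted together 189 and 18 (156). Leaving out 1 library gave 0 (LM F2 or LM M2) to 329 (rTg4510 F1) higher genes, 0 to 292 outside the set, and 0 to 35 lower genes. Added after seeing the data, keeping both identical columns gave 315 and 89 (277), and leaving out rTg4510 F1 with LM F3 gave 421 and 186 (399). In rTg4510-Nano mice against LM mice, with 0 higher and 4 lower genes, DESeq2 gave 20 and 35, and leaving out 1 library gave 0 to 4 higher and 0 to 4 lower genes. The causes were not tested.

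The replicate numbers F3 and M2 occur in both groups, with correlations of their deviations from the group means of -0.305 for F3 and 0.351 for M2. With so few pairs, and no label that ties a number to a litter or batch, the samples were taken to share only a number. A replicate block over these numbers gave 254 higher (224 outside the set) and 32 lower genes. For rTg4510-Nano against LM mice the block was over F2 and M2, the numbers those groups share, and gave 0 lower genes.

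With the choroid plexus score as a covariate, the log2 fold change took the other sign for Bmp6 (-0.58), Camk2a (0.24), Cd55 (-1.01), Drc7 (-1.80), Egr2 (0.49), Gfap (-0.35), Gm11744 (-0.12), Grik2 (0.10), Il17re (-3.27), Lgals3 (-0.76), Nfkb1 (-1.002), Nlrp3 (2.23), Npc2 (-0.27), Ptprn2 (0.29) and Slc16a9 (-0.18). That score separates all rTg4510 from all LM libraries, so the fit cannot tell genotype from choroid plexus content. Its log2 fold changes ran from -28.0 to 18.1 over all tested genes. Leaving out 1 library gave log2 fold changes of -0.044 (without rTg4510 F3) to 0.35 (without rTg4510 F1) for Nfkb1 and of -0.40 (without rTg4510 F1) to 0.37 (without LM F3) for Nlrp3, which was at 0.18 without rTg4510 F3, 0.021 without rTg4510 M2 and 0.00596 without both rTg4510 F1 and LM F3. Depth limits the genes with few counts, such as Ghsr with 6 to 16 counts in rTg4510 libraries and 34 to 69 in LM libraries.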
